A study of Arabidopsis thaliana with 9 samples.

Results

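Of 1177 peak summits of LEAFY (LFY) on the nuclear chromosomes of Arabidopsis callus, 320 lay upstream of protein-coding starts beyond the first 1 kb. They were the summits outside the body of every protein-coding gene and outside the 1000 bp before any protein-coding start, but more than 1000 and at most 3000 bp upstream of at least 1 such start. They made up 27.2% of nuclear summits (95% Wilson interval 24.7 to 29.8) and are called distal summits here. Beside them stood 380 proximal summits, up to 1 kb upstream of a start, 245 summits in gene bodies and 232 remaining intergenic summits. The rule used position alone, so strength, reads and sequence were free to vary.

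The summits came from ChIP-seq with anti-LFY antibodies, set up to locate LFY binding in callus. All plants were L.er (Landsberg erecta), labelled WT for mutation, and carried 35S:LFY-GR, in which the constitutive 35S promoter drives LFY fused to a glucocorticoid receptor domain that enters the nucleus with dexamethasone (dex). Roots of seedlings aged 3 weeks spent 5 days on callus inducing medium, and the 3 groups of 3 samples were dex ChIP (5 µM dex), mock ChIP (mock treatment) and input (no antibody). The sample labels put dex or mock in the last 1 h, whereas the text describing the series names a longer treatment. The model has limits: the fusion was expressed outside the tissues that normally make LFY, and the L.er reads were placed on the Columbia reference. The 3 dex libraries were pooled before peaks were called over the 3 pooled mock libraries, so no value has an error between replicates, and intervals cover counting error only. Tests below treat summits as independent, although 134 of the 320 had another summit within 3 kb.

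LFY is a plant transcription factor that turns newly formed meristems into flowers and activates floral homeotic genes. It binds DNA as a monomer or as a dimer, and its palindromic site has the core CCANTGG, in which N is any base. LFY can act from promoters, introns and more distant intergenic DNA. Callus on inducing medium forms from cells that resemble lateral root founder cells, and auxin signalling is central to it.

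The exact core was centred within 5 bp of the summit at 8 distal summits, which show the sequence most directly under the peak. They are given as the core in capitals with 6 bases on each side, 5′ to 3′ on the strand of the downstream gene, from the RefSeq copy of TAIR10 (TAIR10.1), and named after that gene.
LBD18 (chr2:18716620-18716638, plus strand): tattgaCCAGTGGatttta
PRK5 (chr1:18740832-18740850, plus strand): gtttaaCCAGTGGtacata
ERF15 (chr2:13309643-13309661, minus strand): ttttgaCCAATGGttttca
DTX35 (chr4:13080504-13080522, minus strand): gctggaCCACTGGactatg
MYB84 (chr3:18426412-18426430, plus strand): ttcctaCCAATGGgcaatg
AT5G02230 (chr5:445868-445886, plus strand): taataaCCAGTGGtgattg
ARF10 (chr2:12111302-12111320, plus strand): ataggaCCAATGGaccatt
CRK3 (chr2:19188282-19188300, minus strand): cattgaCCATTGGacataa

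A further 4 sites lay within 25 bp of summits at genes discussed below, and AT2G47560 is shown because it had the highest fold among the distal summits with a core so close.
AT2G47560 (chr2:19514520-19514538, minus strand): ttttgaCCAATGGgcaacc
ACR8 (chr1:4231538-4231556, minus strand): aattgcCCAATGGatatta
ASL5 (chr2:12866559-12866577, plus strand): ttcaagCCAATGGtaaaag
GDH2 (chr5:2354658-2354676, plus strand): gaagacCCAATGGtcaaaa

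Most distal summits had no exact core, whatever their fold. An exact match is a strict measure, and the paper reports the known LFY motif under most of its peak summits. Lack of the exact core therefore does not mean lack of an LFY site. Windows of 30 bp on each side of 4 summits with a high fold and no exact core are shown on the strand of the gene, with each match to the core that has exactly 1 mismatch in capitals.
GA2OX4 (chr1:17696402-17696462, plus strand): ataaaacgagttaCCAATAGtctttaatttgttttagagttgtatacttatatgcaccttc
TIR1 (chr3:23279421-23279481, minus strand): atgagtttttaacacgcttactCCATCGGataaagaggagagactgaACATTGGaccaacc
GID1B (chr3:23287068-23287128, plus strand): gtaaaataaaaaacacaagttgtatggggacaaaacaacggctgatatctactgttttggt
EBF1 (chr2:10852372-10852432, minus strand): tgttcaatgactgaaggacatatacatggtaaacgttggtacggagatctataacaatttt
GA2OX4 had 1 such match in this window, TIR1 had 2, and GID1B and EBF1 had none.

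To ask whether LFY summits thin out with distance, summits were counted per Mb of sequence that met the position rule. Distal summits occurred at 24.5 per Mb over 13.05 Mb, and proximal summits at 22.8 per Mb over 16.7 Mb. Remaining intergenic sequence held 9.30 summits per Mb and gene bodies held 3.80 per Mb. The remaining class also takes in DNA past gene ends, and the share of each class to which reads map uniquely was not assessed. Its density therefore does not measure distance upstream alone. Within the distal range, bins of 250 bp held between 19.6 and 29.7 summits per Mb. The nearer part, up to 2000 bp, held 195 of 320 distal summits, or 60.9% (55.5 to 66.1), and 62.2% of the eligible sequence (exact binomial test, two-sided, adjusted p = 0.691 over 15 tests). The median distance to the start was 1736 bp. No difference in position between distal summits and their sequence was detected, and the interval allows a shift of several percentage points either way.

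**Figure D1:**
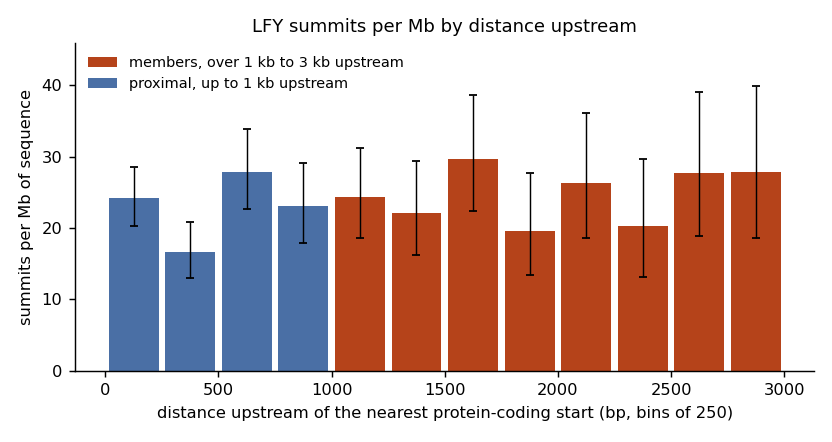
Summits per Mb of sequence (y axis) in bins of 250 bp by distance upstream of the nearest protein-coding start (x axis), for distal summits (orange, called members in the legend) and proximal summits (blue), with exact 95% Poisson intervals. Distal bins lie between 19.6 and 29.7 per Mb, and the lowest bin of all is proximal, 250 to 500 bp, with 16.6 per Mb.

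At the inner limit, the nearest distal summits lay 1003 bp upstream of NUDT17 (fold 6.19) and 1006 bp upstream of PIP1;4 (fold 4.34). Just inside 1 kb, and therefore proximal, were summits 991 bp upstream of AT1G29060 (fold 3.71) and 998 bp upstream of AT4G31140 (fold 2.92). The farthest distal summits lay 2986 bp from AT1G77530 (fold 4.003) and 2989 bp from EDA34 (fold 4.402). Just past 3 kb were summits 3008 bp from PSRP4 (fold 5.23) and 3015 bp from MYB28 (fold 3.21).

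Distance upstream did not always single out a gene. Of the distal summits, 258 lay in the range of 1 gene, 59 in the range of 2 and 3 in the range of 3. For 121 of the 320 (37.8%), the nearest edge of any protein-coding gene was the far end of a neighbouring gene rather than a start, and in 73 cases this end lay within 1 kb. A summit 2379 bp upstream of AT4G22770, which encodes an AT-hook DNA-binding protein, lay 124 bp past the end of ACR7, and a summit 1722 bp upstream of the TCP gene AT1G72010 lay 173 bp past the end of A/N-InvF. Annotated non-coding RNA genes covered 17 distal summits, 1 of them by a gene of type misc_RNA and the others by lncRNA genes. The gene names used here therefore give positions, and no effect on a gene was measured.

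Together the distal summits reached 359 protein-coding genes, 1.31% of the 27444 annotated and 2.58% of the 13912 that had any eligible sequence. For 294 of these genes no summit lay in the 1 kb upstream or in the gene, and summits elsewhere near the gene were not counted. The other 65 also had a summit in the 1 kb upstream or in the gene, with 50 having one in the 1 kb upstream and 19 having one in the gene. Among hormone, flowering and transcription factor genes named below, GA2OX4, ARF19, GH3.17, WES1, DFL1, AT1G75580 and EFE had one in the 1 kb upstream. So did ACS8, AIL6, LSH3, WRKY23, HB40 and TEM1. IAA13, WRKY23 and HB40 had one in the gene. Of the 359 genes, 24 had 2 distal summits each. IAA13 alone had 3.

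Strength was described by the fold, the pooled dex pileup over the mock background with 1 added to each, and by the reads at the summit recovered from it. Distal summits had a median fold of 4.03 (quartiles 3.43 and 5.33, range 2.57 to 16.01). The reads behind them numbered 109 in the median, from 72 to 493, before scaling to the mock depth, and the quartiles were 90 and 151. A fold above 5 was found at 96 distal summits and a fold above 10 at 15. At 128 distal summits the −log10 q-value was under 20, close to the lower limit of 10 used for the list. Above the median fold of all nuclear summits (4.04) lay 157 of 320 distal summits (49.1%, 43.6 to 54.5), against 188 of 380 proximal summits (49.5%, 44.5 to 54.5) and 124 of 232 remaining intergenic summits (53.4%, 47.0 to 59.8). Neither difference passed the threshold (Fisher's exact test, two-sided, adjusted p = 0.94 against proximal summits and 0.445 against remaining intergenic summits). Nearer and farther distal summits had median folds of 4.08 and 3.998.

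**Figure D2:**
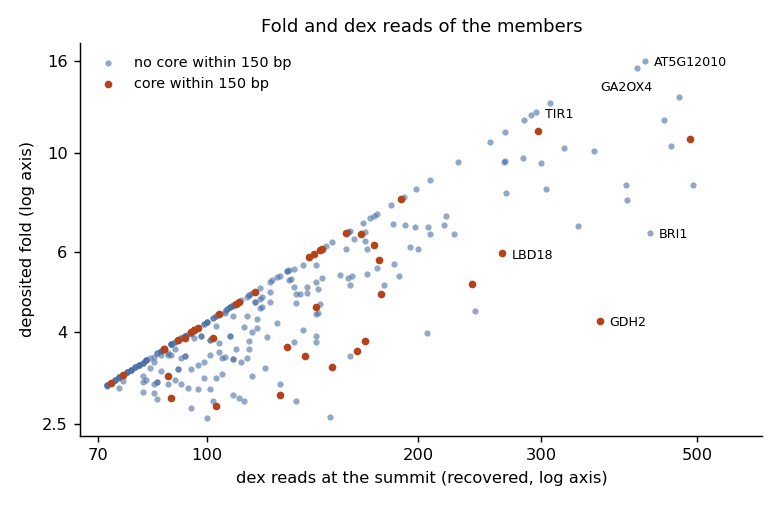
Deposited fold (y axis, log scale) against recovered dex reads (x axis, log scale) for the 320 distal summits, in orange where the core lies within 150 bp and in blue elsewhere. Summits on the upper edge have the background at its genome-wide floor, and points below it, such as GDH2 with 364 dex reads and a fold of 4.23, have more mock reads.

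The highest distal fold, 16.01, lay 1166 bp upstream of AT5G12010, annotated as a nuclease, where 421 dex reads stood over a mock background of 19.8 reads. A summit 2883 bp upstream of AT4G29710, which encodes a protein of the alkaline phosphatase type, had 410 dex reads over 20 mock reads. Its depth-scaled ratio of dex to mock was 16.2 (95% exact interval 10.3 to 26.7), and another distal summit of this gene, 1174 bp upstream, had a fold of 3.09. ORS1, a gene of a family that controls organ size, had 283 dex reads over 18 mock reads at 1029 bp and 90 dex reads at 1709 bp. RTFL21, which encodes a small peptide of the ROTUNDIFOLIA family, had 266 dex reads at 1142 bp and 89 at 1886 bp. In each of these 3 genes 1 summit was much stronger than its companion. The ratios at the 20 distal summits with the highest fold all had intervals above 6. Neighbours in this order had overlapping intervals, so the reads do not rank them. AT5G12010 (15.0 to 18.7) lay above RTFL21 (10.3 to 13.2), but their backgrounds were a regional mean and the genome-wide floor. Mock reads at both summits are not known, so this order holds only for these backgrounds.

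**Figure D3:**
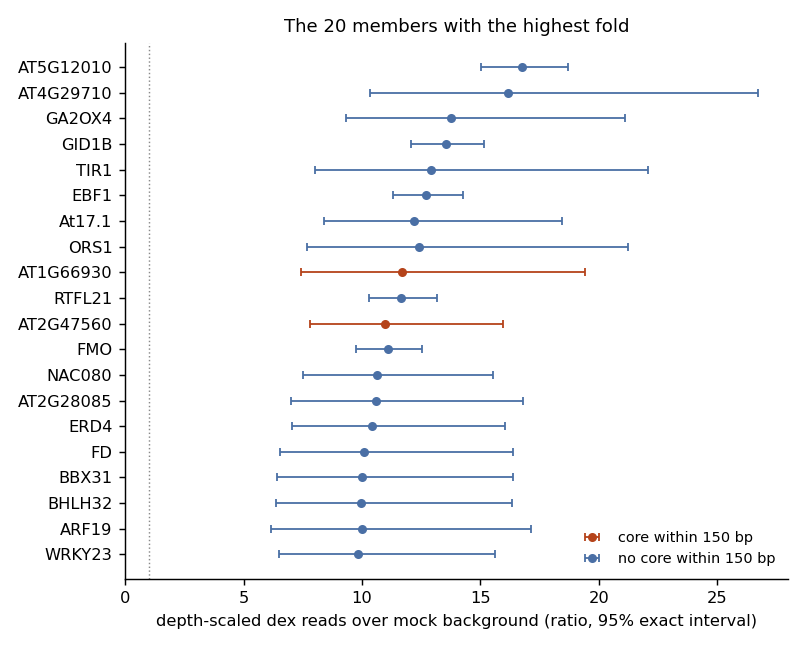
Depth-scaled ratio of dex reads to mock background (x axis, points) with 95% exact intervals (bars) for the 20 distal summits with the highest fold, named after the downstream gene and ordered by fold. Only AT1G66930 and AT2G47560 (orange) have the core within 150 bp, the dotted line marks a ratio of 1, and short bars belong to summits whose background was a genome-wide or regional mean.

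Hormone genes are given by pathway. In gibberellin pathways 3 of 31 listed genes (9.68%, 3.35 to 24.9) had a distal summit. GA2OX4, a gibberellin 2-oxidase that inactivates the hormone, had 472 dex reads over 27 mock reads at 2166 bp (fold 13.3, ratio 13.8, 9.35 to 21.1) and also had a proximal summit. GID1B, a gibberellin receptor, had 309 dex reads over the floor of 17.97 mock reads at 2145 bp (fold 12.9). GA2OX2 had 119 dex reads over 20 mock reads at 1938 bp (fold 4.51). The summits at GA2OX4 and GID1B ranked among the 10 highest distal folds, and that at GA2OX2 was close to the median.

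Auxin genes with a distal summit covered perception, response, conjugation and transport, 18 of 185 listed genes (9.73%, 6.24 to 14.9). TIR1, an F-box auxin receptor, had 295 dex reads over 18 mock reads at 2821 bp (fold 12.3, ratio 12.9, 8.03 to 22.1). Among Aux/IAA repressors, which TIR1 marks for degradation, IAA13 had 3 distal summits, with 100 dex reads at 1133 bp, 85 at 1672 bp and 218 at 2945 bp. IAA9 (fold 4.58), AXR3 (fold 4.08) and IAA2 (fold 3.91) had 1 each. Among auxin response factors, which bind DNA, ARF19 had 228 dex reads over 18 mock reads at 1470 bp (fold 9.51) and ETT had 100 dex reads over the floor at 2395 bp (fold 4.20). ARF10 had 143 dex reads over 24 mock reads at 2573 bp (fold 4.55), with the core printed above 5 bp from the summit.

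Genes of the GH3 family, which conjugate auxin to amino acids, numbered 4 in this list, which missed a further gene annotated to the family, AT5G13350 (fold 3.13): GH3.17 (fold 6.61, 158 dex reads), WES1 (fold 3.904), DFL1 (fold 3.04) and GH3.3 (fold 3.04). GH3.17 had a core 45 bp from its summit at 2201 bp. The influx carrier AUX1 (fold 3.91), the efflux transporter ABCB1 (fold 3.33) and the kinases PID (fold 3.19) and WAG2 (fold 4.57), which act on auxin efflux, had 1 distal summit each. The SAUR-like genes AT2G28085 (fold 10.2) and AT1G75580 (fold 3.25) completed the auxin genes. Of these 18 genes, the cores within 150 bp were at ARF10 and GH3.17.

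In the ethylene, jasmonate and brassinosteroid pathways 5 of 73 listed genes (6.85%, 2.96 to 15.1) had a distal summit. EBF1, an F-box protein that limits ethylene signalling by degrading EIN3, had 290 dex reads over the floor at 1605 bp (fold 12.1) and 104 dex reads over 21 mock reads at 2964 bp (fold 3.77). The weaker summit lay nearer to the start of another gene, AT2G25510, at 2510 bp. The ethylene synthesis genes ACS8 (fold 7.24, 173 dex reads) and EFE (fold 3.83, 91 dex reads) also had distal summits, with a core 58 bp from that of EFE. BRI1, the brassinosteroid receptor, had 428 dex reads over 50 mock reads at 2935 bp (fold 6.63). The steroid synthesis gene DWF1 had 158 dex reads at 1802 bp (fold 6.11). The raised mock reads at BRI1 lower its fold relative to a summit with the same dex reads over the floor. None of 74 listed cytokinin genes had a distal summit, where the Wilson interval reached 4.93% and included the 1.31% of all protein-coding genes.

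Regulators of flowering and meristems included 6 of 60 listed genes with a distal summit (10%, 4.66 to 20.2). Of 24 floral MADS-box genes 0 had one, with an interval up to 13.8% that includes the 1.31% of all protein-coding genes. FD, the bZIP factor that acts with the florigen FT, had 282 dex reads over 22 mock reads at 2161 bp (fold 9.70, ratio 10.1, 6.54 to 16.4). BZIP27, its closest relative, had 75 dex reads over the floor at 1793 bp (fold 3.17). AIL6, a growth regulator of the AINTEGUMENTA family, had 184 dex reads over 20 mock reads at 2205 bp (fold 6.95). MYB84, also called RAX3, which acts in axillary meristems, had 110 dex reads over the floor at 1310 bp (fold 4.62) and a core 4 bp from the summit. LSH3 (fold 3.56) and ETT completed this list, and FD was the strongest of the 6.

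Transcription factors were counted in lists matched by gene symbol and alias, which are partial. Genes such as BHLH32 (fold 9.54) and TEM1 (fold 5.86) were reached but stood in none of them. Distal summits were found at 7 of 125 MYB listed genes (5.60%, 2.74 to 11.1), 4 of 72 WRKY listed genes (5.56%, 2.18 to 13.4), 3 of 53 bHLH listed genes (5.66%, 1.94 to 15.4), 4 of 86 AP2/ERF listed genes (4.65%, 1.82 to 11.4), 3 of 97 homeobox listed genes (3.09%, 1.06 to 8.70), 2 of 50 C2H2 zinc finger listed genes (4%, 1.104 to 13.5) and 2 of 65 TCP, GRF and SPL listed genes (3.08%, 0.848 to 10.5). The NAC list gave 4 of 105 (3.81%, 1.49 to 9.39), 1 of which, NRT1:2, is a nitrate transporter that entered through a shared alias. NAC080 had the strongest NAC summit, with 459 dex reads over 34 mock reads at 1893 bp (fold 10.4). Pairs of distal summits lay upstream of WRKY23 (folds 3.13 and 9.49), WRKY48 (4.54 and 8.32), HB40 (7.98 and 3.67), STZ (2.85 and 5.12) and MYB94 (3.92 and 3.75). In MYB94 the pair was of nearly equal strength, while in the other 4 genes the folds of a pair differed more.

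RAV2, of the AP2/ERF list, had 189 dex reads over the floor at 1057 bp (fold 7.90) with a core 36 bp away. ERF15 had 87 dex reads over the floor at 2077 bp (fold 3.67) and one of the cores printed above. The bHLH gene SPT, which acts in carpel development, had 76 dex reads at 2860 bp (fold 3.21) and a core 27 bp away. Of these 3 genes RAV2 had the highest fold and SPT the lowest.

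Distal summits were also found at 8 of 240 listed cell wall genes (3.33%, 1.70 to 6.44) and 2 of 152 listed immunity genes (1.32%, 0.362 to 4.67), and the immunity share was close to the 1.31% of all protein-coding genes. EXPA6, an expansin that loosens cell walls, had the highest fold of the cell wall genes (6.66, 159 dex reads over the floor). CRK3 (fold 3.81) and PBL1 (fold 3.79) were the listed immunity genes. The list was meant for pattern-triggered immunity and related receptors. CRK3 is annotated as a CDPK-related kinase, so it may be misplaced in this list.

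These shares stand beside 1.31% of all protein-coding genes. Eligible upstream sequence differed between lists, with a mean of 1168 bp for auxin genes, 1380 bp for flowering and meristem genes, 1270 bp for gibberellin genes, 1097 bp for cytokinin genes, 933 bp for floral MADS-box genes, 618 bp for cell wall genes and 469 bp for immunity genes, against 562 bp for all protein-coding genes. Among genes with any eligible sequence, 11.9% of auxin genes, 11.8% of flowering and meristem genes and 12.5% of gibberellin genes had a distal summit, against 2.58% of all such genes. The share was 6.202% for cell wall genes, 2.90% for immunity genes, 0 of 55 for cytokinin genes and 0 of 17 for floral MADS-box genes, and between 4% and 9.62% for the other 9 lists. The lists were chosen with earlier results of these data known, and no enrichment was tested. The median fold was 4.14 over the distal summits at auxin genes, 4.41 at flowering and meristem genes and 12.9 at the 3 gibberellin genes, against 4.03 over all distal summits.

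**Figure D4:**
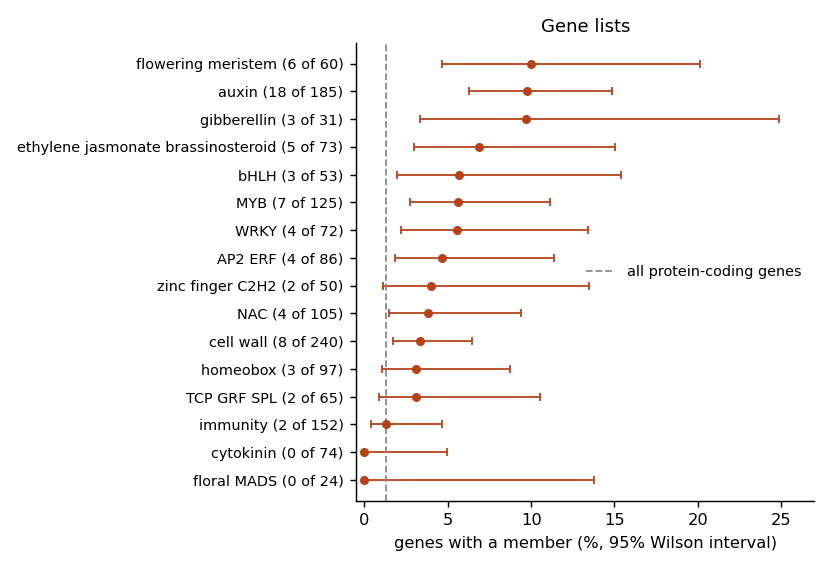
Percent of the genes in each list that had a distal summit (x axis, points) with 95% Wilson intervals (bars), with counts beside each list name and a dashed line for all protein-coding genes. Auxin and flowering meristem genes lie near 10%, against 1.31% for all protein-coding genes, and floral MADS and cytokinin genes are at 0.

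Whether distal summits carry the LFY core was asked next. A core was centred within 150 bp of 40 of 320 distal summits, or 12.5% (9.32 to 16.6), next to 13.1% of all nuclear summits. In the window of the same width 1000 bp to the left, 10 of 320 had one, or 3.12% (1.71 to 5.66). No pair had a core in both windows (exact McNemar test, two-sided, adjusted p = 1.19e-04). Over all positions of the distal sequence, 3.39% had a core within 150 bp. Among the 72 distal summits with a −log10 q-value of 50 or more, the difference was 11.1 percentage points and no longer passed the threshold (exact McNemar test, adjusted p = 0.0964).

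The share at distal summits was 4.34 percentage points lower than the 16.8% (13.4 to 20.9) of proximal summits and 5.17 points higher than the 7.33% (4.62 to 11.4) of remaining intergenic summits. Neither difference passed the threshold (Fisher's exact test, two-sided, adjusted p = 0.185 against proximal and 0.121 against remaining intergenic summits). Proximal sequence had a core near 3.24% of its positions, and remaining intergenic sequence near 4.29%.

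Cores sat close to the distal summits. Of the 40, none of which had a second core in the window, 21 were centred within 25 bp, or 52.5% (37.5 to 67.1), against 16.9% of the positions in the window (exact binomial test, two-sided, adjusted p = 2.25e-06). The median distance was 23 bp, with 17 cores on the side toward the gene and 23 on the other side.

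**Figure D5:**
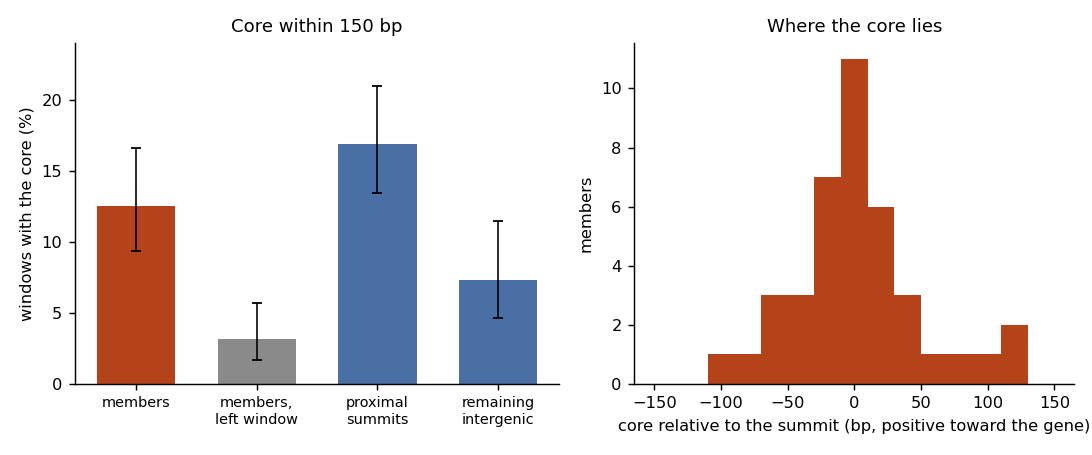
Left, percent of windows with a core within 150 bp (y axis) at distal summits (orange, called members), in the windows to their left (grey) and at proximal and remaining intergenic summits (blue), with 95% Wilson intervals. Right, number of distal summits (y axis) by position of the core relative to the summit in bp (x axis, bins of 20 bp, positive toward the gene), with most of the 40 cores near 0.

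Cores were counted by strength. In the 80 distal summits with the highest fold (5.35 to 16.01), 12 had a core (15.0%, 8.79 to 24.4). The next 80 had 10 cores (12.5%, 6.93 to 21.5), the 80 after them had 11 (13.8%, 7.86 to 22.97) and the 80 with the lowest fold had 7 (8.75%, 4.30 to 17.0), and all 4 intervals overlapped. Median fold was 4.16 at distal summits with a core and 4.0 at those without, and median dex reads were 134 with a core and 109 without. Of the 10 highest folds 1 had a core, at AT1G66930, which encodes a protein kinase, and it lay 104 bp from the summit. AT2G47560, which encodes a RING-type protein, came next with 488 dex reads over 35 mock reads and a core 19 bp from the summit. Nearer and farther distal summits had cores at 12.8% and 12.0%.

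Genes behind the distal cores had varied roles. LBD18, a LOB-domain factor that promotes lateral root formation, had 264 dex reads over 34 mock reads at 1721 bp (ratio 6.12, 4.27 to 9.02), with the core 2 bp from the summit. ASL5, another LOB-domain gene, had 97 dex reads over the floor at 1883 bp and a core 10 bp away. ACR8, which encodes a protein with ACT domain repeats, had 177 dex reads over 28 mock reads at 2352 bp and a core 16 bp away. CYCD3;3, a D-type cyclin of cell division, had 87 dex reads over the floor at 1436 bp and a core 57 bp away.

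GDH2, a glutamate dehydrogenase, had the most mock reads of any distal summit, 67 beside 364 dex reads at 1071 bp. Its ratio was 4.28 (3.29 to 5.64), and the summit lay 350 bp past the end of AT5G07430, with a core 21 bp away. The GDH2 interval overlapped the lower end of that at LBD18, so these summits could not be ordered.

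With up to 1 mismatch in the 6 fixed bases and windows of 25 bp, chosen after seeing the data, 37.5% of distal summits had a match, against 10.9% of left windows (exact McNemar test, two-sided, adjusted p = 9.67e-13) and 42.4% of proximal summits (Fisher's exact test, two-sided, adjusted p = 0.323). Of the 10 highest folds, 2 had such a match within 25 bp, and at 98 of all 320 distal summits none lay within 150 bp. Within 150 bp, 69.4% of distal summits had a match, against 45.0% of left windows (exact McNemar test, two-sided, adjusted p = 1.08e-08).

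Bases beside the core are given as counts only. Among 30 cores within 50 bp of a distal summit, G stood at the 2nd position outside the core, counted outward on either side, at 25 of 60 sides (41.7%), as in LBD18, ERF15 and CRK3 above. At proximal summits G was there at 48 of 96 sides (50%). In the windows 1000 bp to the left and right of distal summits it was there at 11 of 42 sides (26.2%).

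Other short motifs were searched on both strands in the same windows. The motif TGGNCCA was chosen with earlier results of these same data known, so its p-values are not independent of that choice. TGGNCCA, the core with its arms exchanged, was centred within 150 bp of 40 distal summits (12.5%, 9.32 to 16.6) and in 17 left windows (5.31%, 3.34 to 8.34), a difference that passed the threshold (exact McNemar test, two-sided, adjusted p = 0.00800). Against windows to the right, 7.50% of which had it, the difference of 5.00 percentage points did not (exact McNemar test, adjusted p = 0.121). Over all positions of the distal sequence 4.99% had it. Of the distal summits, 10 had both TGGNCCA and the LFY core, and 70 had at least 1 of them. The motifs can overlap, as in the ARF10 and DTX35 sequences printed above, so having both need not mean separate sites.

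The G-box CACGTG, bound by bHLH and bZIP factors, was found at 29 distal summits (9.06%, 6.38 to 12.7) and in 16 left windows (5.00%, 3.10 to 7.97), which did not pass the threshold (exact McNemar test, two-sided, adjusted p = 0.121). It passed in 4 of the other settings, among them the comparison with the right windows, where 2.5% had it (exact McNemar test, adjusted p = 8.10e-04). It was near 3.87% of positions of the distal sequence. GAGAGA was found at 65 distal summits (20.3%) and in 51 left windows (15.9%), without a difference past the threshold (exact McNemar test, two-sided, adjusted p = 0.263), and near 18.1% of distal positions.

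GC content was higher at distal summits, with a mean of 33.0% against 30.9% in the left windows. It was higher at the summit in 213 of the 316 pairs that differed (exact sign test, two-sided, adjusted p = 8.82e-09). Its part in the motif counts was not tested.

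Distal and proximal summits differed in mock background. The background was above the genome-wide floor of 17.97 mock reads at 193 of 320 distal summits (60.3%, 54.9 to 65.5), against 285 of 380 proximal summits (75%, 70.4 to 79.1), a difference that passed the threshold (Fisher's exact test, two-sided, adjusted p = 1.63e-04). It did not among summits with a −log10 q-value of 50 or more (Fisher's exact test, adjusted p = 0.153). Against remaining intergenic summits, with 131 of 232 (56.5%, 50.03 to 62.7), no difference was detected (Fisher's exact test, adjusted p = 0.445). The background was at least 2 times the floor at 11 distal summits, GDH2 and BRI1 among them.

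Distal summits had neighbours more often than proximal ones. Another summit lay within 3 kb of 134 of 320 distal summits (41.9%, 36.6 to 47.4), against 105 of 380 proximal summits (27.6%, 23.4 to 32.3; Fisher's exact test, two-sided, adjusted p = 2.60e-04). By Fisher's exact test the difference did not pass the threshold for neighbours within 1 kb (15.0% against 12.1%, adjusted p = 0.402), nor among summits with a −log10 q-value of 20 or more (32.3% against 22.8%, adjusted p = 0.0743). Remaining intergenic summits had neighbours in 106 of 232 cases (45.7%, 39.4 to 52.1), without a detected difference (Fisher's exact test, adjusted p = 0.445). The neighbour was itself distal for 53 summits, proximal for 56, remaining intergenic for 40 and in a gene body for 21, and some summits had more than 1 kind. At most 4 neighbours were found. Both summits of a close pair were counted, and the sequence within 3 kb was not matched between distal and proximal summits. Gene bodies held 3.80 summits per Mb and distal sequence 24.5. The part of this sequence in the difference from proximal summits was not tested.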

How the data were processed

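The authors trimmed reads, mapped them to TAIR10 with Bowtie2, pooled the 3 dex and the 3 mock libraries and called peaks with MACS2, and the inputs were not used. The deposited list gives for each peak a fold (a ratio, dex pileup plus 1 over mock background plus 1), the −log10 of its p-value and of its q-value (the q-values being 10 or more on this scale), and a score, which was not used. Total depth per sample is unknown from the list. Dex reads and mock background were recovered by solving fold and p-value together under the Poisson model of the caller, with a window of 138 bp, and dex reads were scaled by 0.788 for ratios. Intervals of ratios are conditional binomial, or Poisson where the background is the genome-wide floor, which was taken as fixed. The solver, the search for exact cores and Fisher's exact test were tested on simulated data, and the other tests were not.

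Gene models were the protein-coding genes of RefSeq TAIR10.1, the same assembly. Summits were counted from 1. Cores and motifs were exact matches centred within 150 bp, compared with windows 1000 bp away by exact McNemar tests, and summit classes by Fisher's exact test, with p-values adjusted over 15 tests (Benjamini-Hochberg, threshold 0.05). A distal summit was named after the nearest start in its range. The rule for naming took summits with the 10 highest folds, the 10 smallest q-values, cores within 25 bp or most summits per gene. It also took list membership and a position at the limits. Not every summit under this rule was named in the text. CYCD3;3, BHLH32, TEM1, AT5G13350 and some of the lower 10 summits in the plot of the 20 highest folds go beyond this rule and were chosen after their values were seen. Members, the motif TGGNCCA and the 16 gene lists were chosen with earlier results of these data known. Python 3 with scipy was used.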

Additional observations from a re-analysis of the deposited data

How the results depend on the processing

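No paired analysis was possible because the libraries were pooled before peaks were called, and for the same reason no replicate could be left out. Of 95 alternatives, 2 chosen after seeing the data, 69 kept direction and side of the threshold, or a count within 1.5 times. The number of distal summits was 192 where the −log10 q-value had to reach 20, 72 at 50, 195 with an outer limit of 2000 bp and 490 with an inner limit of 500 bp. The genes reached were 222, 88, 208 and 584 in the same settings and 588 with an outer limit of 5 kb.

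Differences below are in percentage points, distal minus the other windows or summits. All limits on q-values in this paragraph are on the −log10 scale. With a −log10 q-value of 50 or more the core against left windows (11.1), mock background against proximal summits (-11.2) and neighbours against proximal summits (6.58) no longer passed the threshold, with fewer summits tested. Neighbours were at 9.47 with a q-value of at least 20 and at 2.90 within 1 kb, and TGGNCCA was at 5.00 against right windows, all short of the threshold. The G-box passed it at a q-value of at least 20 (7.29), with all annotated genes (6.33), against right windows (6.56) and within 50 bp (3.75), and the cause was not tested. Differences that changed sign never passed it: the core against remaining intergenic summits with 1 mismatch (-2.61), fold against proximal summits at a q-value of at least 20 (2.49), at 50 (4.65) and with 1 summit per chain within 3 kb (4.39), position at a q-value of at least 20 (0.25) and with 1 summit per chain (3.46), and GAGAGA within 50 bp (-0.31). Depth limits the order of single summits, and summits under the threshold of the list are not seen.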
